A study of Homo sapiens with 6 samples.

Results

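A group of 10 genes that encode interferon-induced membrane proteins and small effectors was followed: IFI6, IFI27, IFI35, IFITM1, IFITM2, IFITM3, LY6E, BST2, LGALS3BP and XAF1. They were chosen by name, with earlier results of these data known, and all 10 were found among the 20494 genes of the deposited table. RNA had been sequenced from PA-1, a human teratocarcinoma cell line, in 6 libraries with 1 library per group. One group was exposed to 200 ng of the ligand Wnt3a for 16 h. The others took 8 µg of a plasmid for 48 h, which was for RIPK1, RIPK2, RIPK3 or RIPK4 (receptor-interacting protein kinases) or, in the Vector group, the pCDNA3.1 vector. All groups are thus the same line, grown in DMEM with Ham's F12 and serum. The labels give no plasmid for the Wnt3a cells, so ligand, plasmid and time cannot be told apart where Wnt3a is set against Vector. They also give no clone, no share of cells that took up plasmid and no second culture of any group.

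Type I and type III interferons act through paired receptors that activate the kinases JAK1 and TYK2. These activate a complex that holds STAT2 and IRF9 and binds a DNA element called ISRE in front of interferon-stimulated genes. The 10 genes are such targets and work at the end of the pathway. IFITM proteins sit in the plasma membrane and endosomes and hinder the fusion of viruses with the cell, BST2 (tetherin) holds budding particles at the surface, and LY6E is a surface protein on a lipid anchor. IFI6 and IFI27 are small hydrophobic proteins of organelle membranes, LGALS3BP is a secreted glycoprotein, and IFI35 and XAF1 work inside the cell.

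Recovered from the values, the depth was 19.5 M reads with RIPK1, the deepest library, and 17.2 M in Vector, the shallowest. Levels are RPKM, a read count divided by gene length and by depth, and 11881 genes with a mean of at least 1 RPKM over the 6 libraries were kept, among them all 10. RIPK3 and RIPK4 were at 61.4 and 17.9 RPKM in the libraries that bear their names and at most 0.0384 RPKM in any other. RIPK2 stood at 27.4 against 11.8 RPKM and RIPK1 at 16.6 against 12.8 RPKM in Vector, each highest in its own library. Of 10 markers of pluripotent embryonal carcinoma, 7 were kept, among them LIN28A at 213 to 392 RPKM and SOX2. SOX2, a pluripotency factor, had the largest difference in that list, with 48.1 RPKM with Wnt3a, 133 with RIPK1, 63.2 with RIPK2, 68.5 with RIPK3, 78.1 with RIPK4 and 149 in Vector. TDGF1 was at 0 throughout and NANOG stood at 0.0977 to 0.234 RPKM. Among 7 markers of blood cells PTPRC was at most 0.00849 RPKM and CD68 was the 1 kept. All 4 endothelial markers were kept and summed to 50.7 RPKM with Wnt3a, 55.2 with RIPK1, 60.5 with RIPK2, 66.8 with RIPK3, 47.9 with RIPK4 and 52.5 in Vector. Bulk RNA cannot tell fewer cells that express a gene from less RNA in each cell. With no replicate, no p-value or SD is given. Ratios are of RPKM, and ranges in brackets are exact 95% intervals from the reads of both libraries, which cover counting error only.

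The 10 genes were abundant in most libraries and far less so with RIPK1. Their summed level was 3148 RPKM with Wnt3a, 859 with RIPK1, 4100 with RIPK2, 4301 with RIPK3, 3661 with RIPK4 and 2851 in Vector. They took 0.264% of reads with Wnt3a, 0.0734% with RIPK1, 0.354% with RIPK2, 0.372% with RIPK3, 0.317% with RIPK4 and 0.245% in Vector. Among the 1000 most abundant kept genes, a share of 8.42%, stood 5 of the 10 with RIPK1 and 8 in each of the other 5 libraries. Each of the 10 was lowest in RIPK1, as were 21.0% of all kept genes. Highest were 7 in RIPK3, 2 in RIPK4 and 1 in RIPK2, against 11.9%, 11.0% and 13.6% of kept genes.

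**Figure D1:**
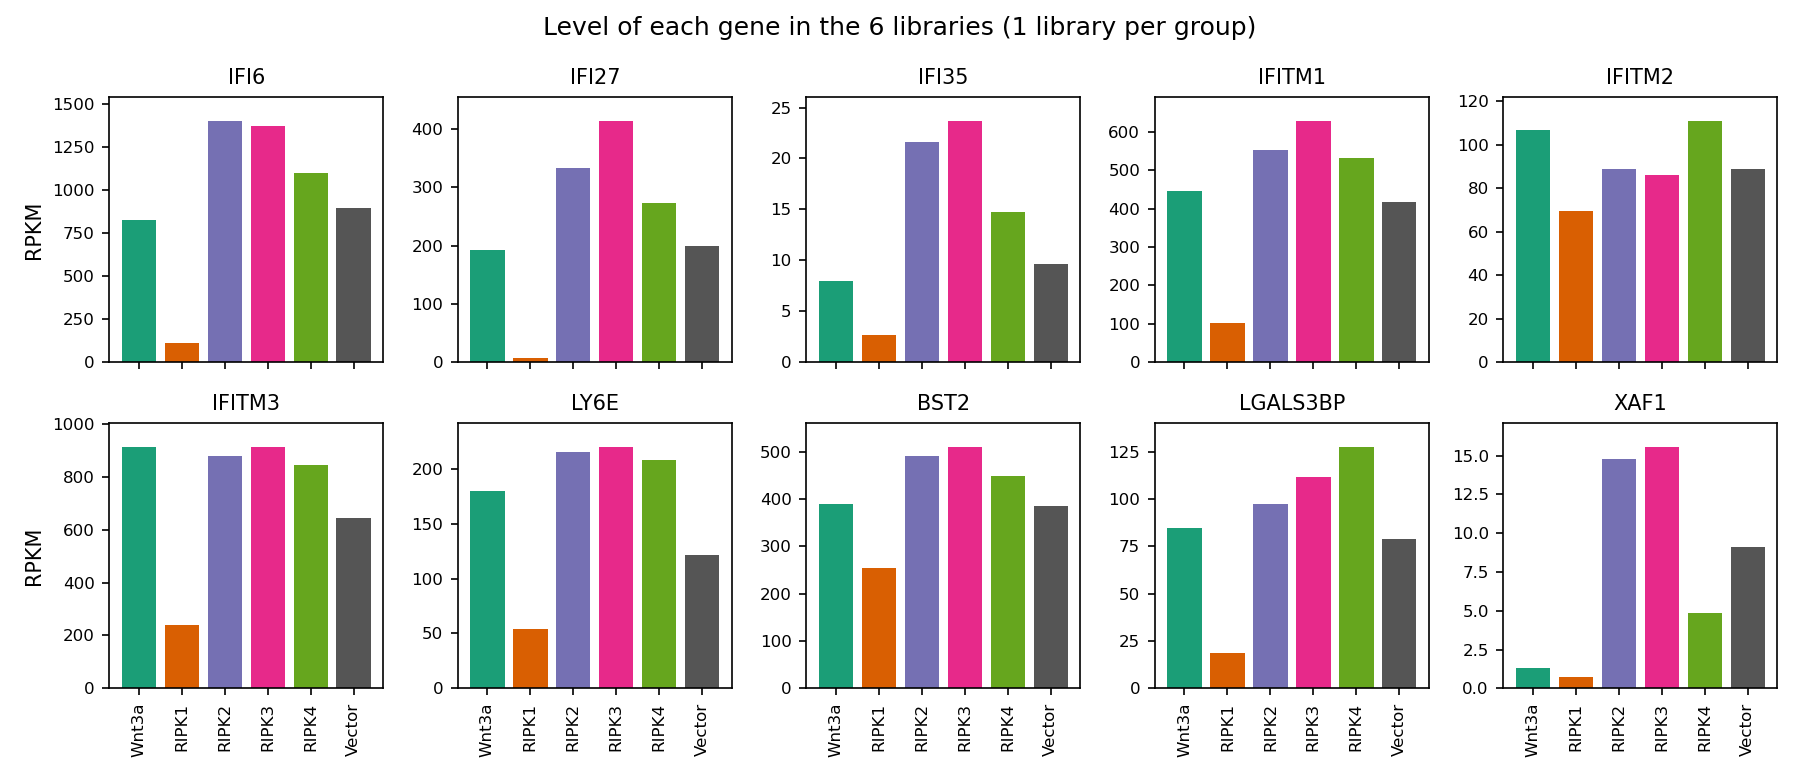
RPKM of each of the 10 genes (vertical axes from 0, 1 scale per gene) in the 6 libraries, each bar 1 library. The RIPK1 bar is the lowest in every panel, and XAF1 is the gene whose Wnt3a bar is nearly as low, at 1.33 RPKM.

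IFI6 and IFI27 belong to 1 family of small interferon-induced proteins. IFI6, which restricts flaviviruses at the endoplasmic reticulum, stood at 828 RPKM with Wnt3a, 112 with RIPK1, 1405 with RIPK2, 1377 with RIPK3, 1099 with RIPK4 and 896 in Vector. Among kept genes ranked by RPKM it took place 398 in RIPK1 and place 13 in Vector. IFI27, found at mitochondrial and nuclear membranes, had 193 RPKM with Wnt3a, 7.54 with RIPK1, 334 with RIPK2, 415 with RIPK3, 273 with RIPK4 and 200 in Vector. Both were low in RIPK1 alone, and IFI27 had the widest range of the 10, with its highest library 55.0-fold above its lowest. About 120 reads of IFI27 remained with RIPK1 against about 2809 in Vector, a 26.5-fold lower level (22.1 to 32.1). IFI6 was 8.03-fold lower there (7.64 to 8.43), so the ratio of IFI6 to IFI27 level was 14.8 with RIPK1 and 3.32 to 4.49 in the other 5 libraries. Their relative IFI27L2, which was not among the 10, was lowest in Vector: it had 21.0 RPKM with Wnt3a, 15.5 with RIPK1, 13.7 with RIPK2, 15.7 with RIPK3, 20.7 with RIPK4 and 11.7 in Vector. IFI27L1 stood at 10.3 to 12.1 RPKM in the 6 libraries.

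The IFITM genes differed from each other. IFITM3, whose protein guards endosomes, stood at 911 RPKM with Wnt3a, 240 with RIPK1, 878 with RIPK2, 913 with RIPK3, 843 with RIPK4 and 642 in Vector. IFITM1, the plasma membrane form, had 447 RPKM with Wnt3a, 101 with RIPK1, 554 with RIPK2, 630 with RIPK3, 531 with RIPK4 and 419 in Vector. Both were thus low in RIPK1, by 2.67-fold (2.56 to 2.79) for IFITM3 and 4.15-fold (3.91 to 4.40) for IFITM1 against Vector. IFITM2, the other endosomal form, was at 107 RPKM with Wnt3a, 69.7 with RIPK1, 88.7 with RIPK2, 86.2 with RIPK3, 111 with RIPK4 and 88.8 in Vector. It had the narrowest range of the 10, 1.59-fold from lowest to highest, and its RIPK1 level lay 1.27-fold below Vector (1.17 to 1.39). In the coding transcripts of GENCODE, 42.3% of the windows of 50 bases in IFITM1 also occur in IFITM2 or IFITM3, as do 10.4% of those in IFITM2 and 17.9% of those in IFITM3. How the authors assigned such reads is not given in the sources used here, so the split between the 3 genes is uncertain.

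LY6E and BST2 are held in the membrane by lipid anchors, BST2 by a membrane span as well. LY6E stood at 180 RPKM with Wnt3a, 53.9 with RIPK1, 216 with RIPK2, 220 with RIPK3, 208 with RIPK4 and 122 in Vector. Vector was next to lowest for LY6E, and RIPK2, RIPK3 and RIPK4 stood close together above it. BST2 was at 390 RPKM with Wnt3a, 254 with RIPK1, 491 with RIPK2, 510 with RIPK3, 448 with RIPK4 and 386 in Vector. Its RIPK1 level lay 1.52-fold below Vector (1.47 to 1.58), and BST2 stayed among the more abundant genes there, at place 110. LGALS3BP, a secreted partner of galectin-3, had 84.5 RPKM with Wnt3a, 18.5 with RIPK1, 97.5 with RIPK2, 112 with RIPK3, 128 with RIPK4 and 78.9 in Vector. Its highest library was RIPK4, 1.14-fold above RIPK3, and its RIPK1 level was 4.26-fold below Vector (3.94 to 4.60).

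IFI35 and XAF1 were the least abundant of the 10. IFI35, a leucine zipper protein that associates with NMI, had 7.95 RPKM with Wnt3a, 2.64 with RIPK1, 21.6 with RIPK2, 23.7 with RIPK3, 14.7 with RIPK4 and 9.63 in Vector. About 63 reads remained with RIPK1 against about 203 in Vector, 3.64-fold lower in level (2.73 to 4.92). XAF1, which binds the caspase inhibitor XIAP, had 1.33 RPKM with Wnt3a, 0.706 with RIPK1, 14.8 with RIPK2, 15.6 with RIPK3, 4.83 with RIPK4 and 9.14 in Vector. XAF1 was low in Wnt3a and RIPK1 alike, and of the 10 it was the one below Vector with RIPK4. Among their partners, XIAP stood at 5.45 to 7.66 RPKM in the 6 libraries, and NMI at 0.275, 0.245, 1.47, 1.79 and 0.539 RPKM with Wnt3a, RIPK1, RIPK2, RIPK3 and RIPK4 and at 0.646 in Vector. LGALS3, which encodes galectin-3, stood at 1.45 to 2.12 RPKM.

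Neighbours in the order of levels were compared by reads. The higher library was always set over the next, so no interval could lie below 1. Of the 50 pairs of neighbouring libraries over the 10 genes, 39 had an interval above 1 and 11 an interval that included 1. In abundant genes the many reads part even small ratios, such as RIPK2 over RIPK3 for IFI6 at 1.02 (1.002 to 1.040). The count of 39 thus depends on read numbers as well as on the size of the differences. The 10 pairs that part RIPK1 from the next library were all among the 39. The 11 included RIPK3 over RIPK2 for IFI35 (interval 0.970 to 1.24), LY6E and XAF1, RIPK3 over Wnt3a for IFITM3 (0.977 to 1.03), and 3 of the 5 pairs of IFITM2.

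Against Vector, RIPK1 was set apart by low levels of nearly the whole group. On the scale of log2(RPKM + 1), 8 of the 10 were at least 2-fold lower, beside 0.547% of all genes tested, and 0 at least 2-fold higher, beside 0.295%. All 10 lay below Vector, as did 47.8% of all genes. Their median difference was -1.79, with a range of -4.55 to -0.34, where the median over all genes was 0.01. BST2 at -0.60 and IFITM2 at -0.34 were the 2 within 2-fold. Measured by RPKM, RIPK1 was under every other library by 2-fold or more for 7 of the 10, beside 0.387% of kept genes. The exceptions were BST2, IFITM2 and XAF1. The labels give RIPK1 and Vector the same plasmid amount and time. The summed level of 6 fibroblast markers was 58.7 RPKM with RIPK1 and 66.03 RPKM in Vector, and that of 7 blood cell markers 2.06 and 2.48 RPKM. Differences between RIPK1 and Vector had little relation to transcript GC content (Spearman rho -0.0907 over 11038 genes). The part of plasmid, time, these markers and GC content in the result was not tested.

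**Figure D2:**
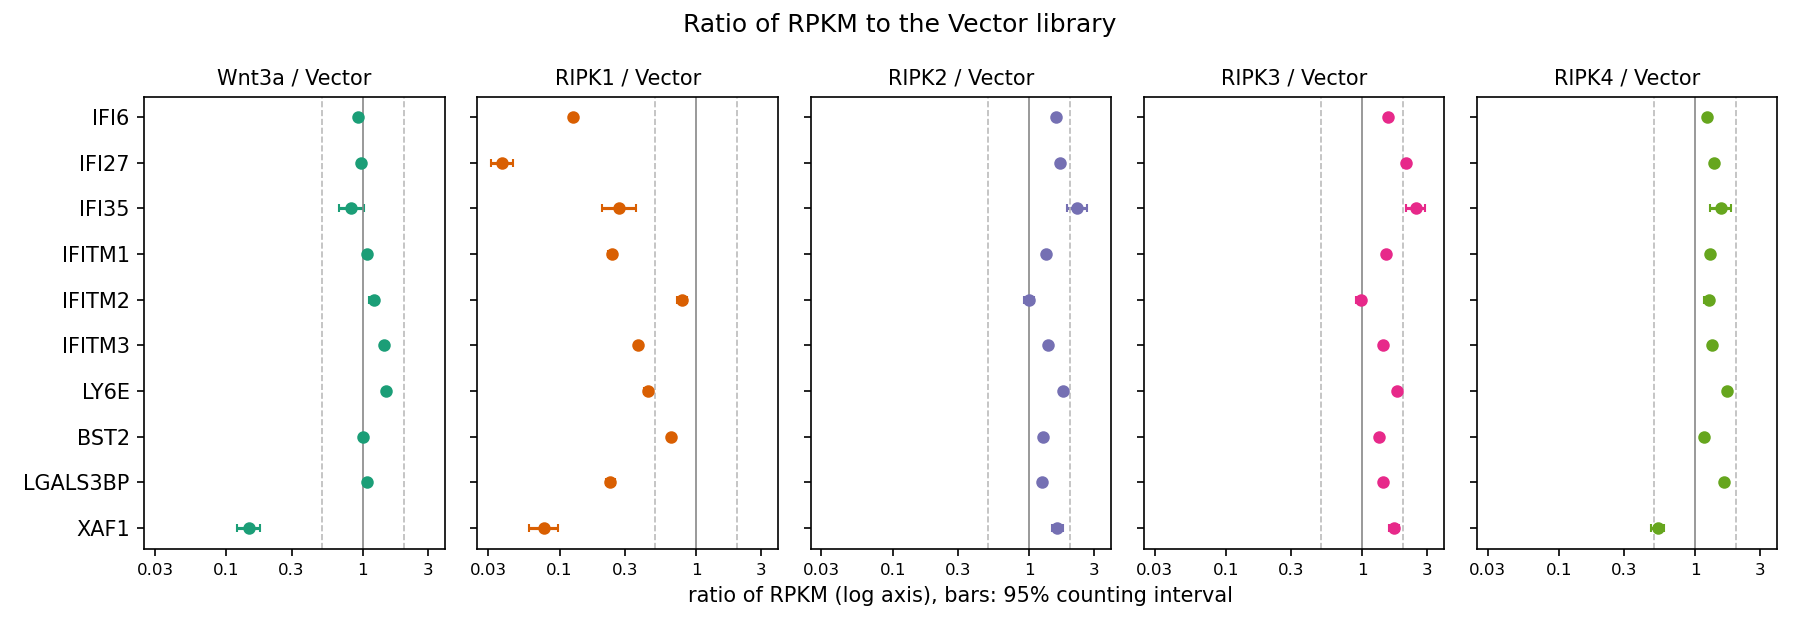
Ratio of RPKM to the Vector library (log axis) for the 10 genes, 1 panel per library, with 95% counting intervals as bars and dashed lines at 2-fold either way. The RIPK1 points all lie left of 1, down to 0.0378 for IFI27, and XAF1 lies apart to the left with Wnt3a (0.146) and RIPK4 (0.528).

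RIPK2 and RIPK3 were accompanied by moderately higher levels. With RIPK2, 9 of the 10 stood above Vector, as did 49.1% of all genes, while 1 lay below, as did 50.9%. IFI35 was the 1 gene at least 2-fold higher, beside 1.59% of genes, and 0 were at least 2-fold lower, beside 0.699%. The median was 0.54 and that of all genes -0.01. With RIPK3, 9 of the 10 stood above Vector too, beside 52.2% of genes. IFI27 at 2.08-fold (1.99 to 2.17) and IFI35 at 2.46-fold (2.09 to 2.91) were the 2 at least 2-fold higher, beside 1.47% of genes. None of the 10 was at least 2-fold lower, beside 0.581%, and the median was 0.60 against 0.02 for all genes. IFITM2 was the gene not above Vector in either, with ratio intervals of 0.922 to 1.09 for RIPK2 and 0.894 to 1.05 for RIPK3. Both libraries differed from Vector along transcript GC content, with Spearman rho of 0.666 for RIPK2 and 0.546 for RIPK3. With that trend removed the medians were 0.37 and 0.47, IFI35 with RIPK2 (0.81) and IFI27 with RIPK3 (0.85) were within 2-fold, and LGALS3BP with RIPK2 was at -0.02. Fibroblast markers stood higher in both libraries: 3 of 6 were kept, their list summed to 128 RPKM with RIPK2 and 138 with RIPK3 against 66.03 RPKM in Vector, and DCN was at 0. The 7 blood cell markers summed to 5.69 RPKM with RIPK2 and 5.44 with RIPK3 against 2.48 in Vector, with PTPRC at 0 in both. Of the endothelial markers CDH5 had 10.95 RPKM with RIPK2 and 11.5 with RIPK3 against 5.40 in Vector, and KDR 12.3 and 12.4 against 6.84 RPKM. The 10 pluripotency markers summed to 799 RPKM with RIPK2 and 840 with RIPK3 against 1179 in Vector. The part of these markers and of GC content in the result was not tested. Set directly against RIPK2, RIPK3 had 0 of the 10 at least 2-fold apart, beside 0.0337% of genes higher and 0.32% lower, and 8 of the 10 stood above it, beside 61.5%. IFI27 differed most, 1.24-fold higher with RIPK3 (1.20 to 1.29), and the median difference was 0.06 where all genes gave 0.05.

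With RIPK4 most of the group stood a little above Vector. Of the 10 genes 9 were above it, beside 55.6% of all genes, 1 below, beside 44.4%, and 0 were at least 2-fold higher or lower, beside 0.396% and 0.387%. LY6E at 1.70-fold (1.62 to 1.79), LGALS3BP at 1.62-fold (1.55 to 1.69) and IFI35 at 1.53-fold (1.28 to 1.83) had the highest ratios. XAF1 was the exception at 4.83 against 9.14 RPKM, 1.89-fold lower (1.69 to 2.12). The median was 0.37 and that of all genes 0.05. With the GC trend removed (Spearman rho 0.669) the median was 0.16, BST2 was at -0.04 in place of 0.21, and XAF1 lay below Vector at -0.66. The fibroblast markers summed to 105 RPKM with RIPK4 and 66.03 in Vector, and the pluripotency markers to 1196 and 1179 RPKM, SOX2 being lower with RIPK4. The part of GC content and of these markers was not tested.

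With Wnt3a the group stood near Vector, apart from XAF1. The median was 0.05 and that of all genes 0.04, 6 of the 10 were above Vector, beside 53.3% of genes, 4 below, beside 46.7%, and 0 were at least 2-fold higher, beside 0.673%. XAF1 was the 1 gene at least 2-fold lower, beside 1.43% of genes, with about 131 reads against about 836 and a level 6.85-fold lower (5.69 to 8.30). LY6E at 1.48-fold (1.41 to 1.55) and IFITM3 at 1.42-fold (1.38 to 1.46) were the highest. GC content moved with these values: differences from Vector followed it with a Spearman rho of 0.701, and XAF1 had the lowest GC content of the 10, 43.0%, where the other 9 held 52.5% to 64.2% and kept genes had a median of 48.6%. With the trend removed XAF1 was still lower by more than 2-fold, at -1.93, and the median of the 10 was -0.28. IFI35 (-0.58), IFI6 (-0.39), IFI27 (-0.37), BST2 (-0.29), LGALS3BP (-0.27) and IFITM1 (-0.10) then lay below Vector as well, all within 2-fold. IFITM3 and LY6E were then at 0.21 and 0.16, and IFITM2 at 0.001. The fibroblast markers summed to 116 RPKM with Wnt3a and 66.03 in Vector, and the pluripotency markers to 1054 and 1179 RPKM, with SOX2 at 48.1 and 149 RPKM. The part of GC content and of these markers was not tested.

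**Figure D3:**
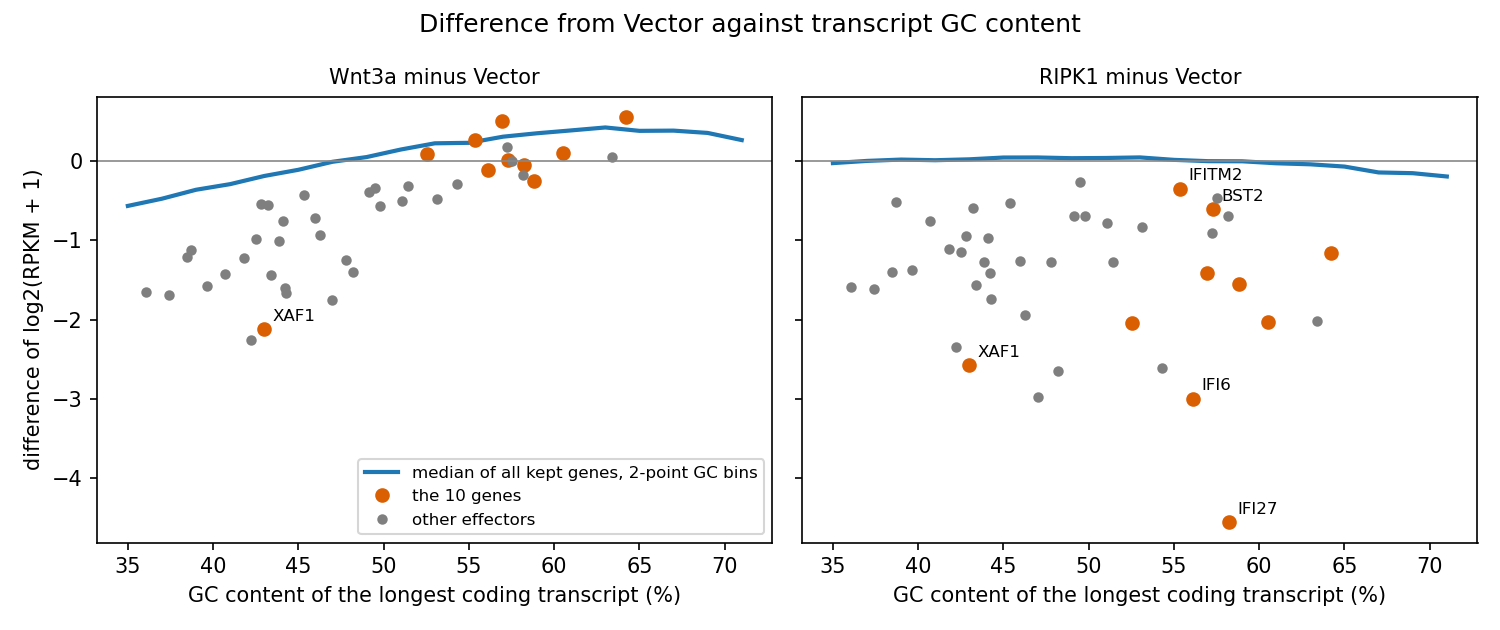
Difference of log2(RPKM + 1) from Vector (vertical axis) against GC content of the longest coding transcript in percent, for Wnt3a on the left and RIPK1 on the right. Orange points are the 10 genes, grey points the other effectors with a GC value, and the line is the median of all kept genes in bins 2 points wide. With Wnt3a the line climbs with GC content and XAF1 lies far below it at 43.0% GC. With RIPK1 the line is nearly flat and all 10 genes lie below 0.

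RIPK1 and Wnt3a, the 2 libraries with the least XAF1, were also set against each other. RIPK1 had 7 of the 10 at least 2-fold lower than Wnt3a, beside 0.833% of genes, and all 10 below it, beside 51.6%. The median difference was -1.82, or -1.44 with the GC trend removed (Spearman rho -0.783), which left 6 of the 10 at least 2-fold lower, beside 0.435% of genes. XAF1 was 1.89-fold lower with RIPK1 than with Wnt3a (1.41 to 2.55) and IFI27 25.5-fold (21.3 to 30.9). RIPK4 against Wnt3a had 9 of the 10 above, beside 54.9% of genes, and 1 below, beside 45.1%. XAF1 was the 1 of them at least 2-fold higher, at 3.62-fold (2.98 to 4.43), beside 0.295% of genes, and 0 were at least 2-fold lower, beside 0.143%. IFITM3 was the 1 below, 1.08-fold lower (1.05 to 1.11). Time differed in these 2 comparisons as well, so they do not set kinase against ligand alone.

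The rest of the pathway was described from lists chosen by function, also with earlier results of these data known. Of 21 interferon ligand genes 13 were at 0 in every library, and IL29 (interferon lambda) was the 1 kept. It had 0.189, 0.240, 3.27, 1.90 and 0.447 RPKM with Wnt3a, RIPK1, RIPK2, RIPK3 and RIPK4 and 0.136 in Vector. Its mean of 1.03 RPKM passed the filter through RIPK2 and RIPK3 only. No length was found for IL29, so no reads or intervals are given. For a gene of 1 kb, 3 reads are 0.162 RPKM with Wnt3a, 0.154 with RIPK1 and 0.174 in Vector, near its levels there. IFNB1 (interferon beta), below the mean of 1 RPKM, had 0 reads with Wnt3a, 0 with RIPK1, 29 with RIPK2, 17 with RIPK3, 5 with RIPK4 and 4 in Vector. Its ratio to Vector was 6.48 with RIPK2 (2.28 to 25.4) and 3.84 with RIPK3 (1.25 to 15.7). A count of 0 allows up to 3 reads, so levels with Wnt3a and RIPK1 were not distinguishable from Vector at this depth. Among receptors and signalling genes, 16 of 17 were kept. Of these 3 were at least 2-fold lower with RIPK1, beside 0.547% of all genes, and 1 with Wnt3a, beside 1.43%. With RIPK3, 1 was at least 2-fold higher, beside 1.47%. STAT2 lay between 15.7 RPKM with RIPK1 and 34.9 with RIPK2, and IRF9 between 14.4 and 36.3 in the same 2 libraries. IRF7, an amplifier of interferon genes, had 15.2, 7.04, 40.2, 38.9 and 25.1 RPKM with Wnt3a, RIPK1, RIPK2, RIPK3 and RIPK4 and 22.3 in Vector. IRF7 was thus lowest with RIPK1, as the 10 genes were. Of 5 kept nucleic acid sensors, 2 were at least 2-fold lower with Wnt3a, beside 1.43% of all genes. The same number were with RIPK1, beside 0.547%. DDX58 stood at 6.54 RPKM with Wnt3a and 8.09 with RIPK1 against 25.3 in Vector.

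The other interferon-stimulated effectors served as the nearest set for comparison, with 34 of 46 kept. With RIPK1, 19 of the 34 were at least 2-fold lower with a median of -1.20, beside 8 of the 10 with -1.79. Among all genes 0.547% were, with a median of 0.01. With Wnt3a, 16 of the 34 were at least 2-fold lower with a median of -0.96, beside 1 of the 10 with 0.05. Here the share of all genes was 1.43% and their median 0.04. With RIPK2, RIPK3 and RIPK4 their medians were 0.54, 0.68 and -0.12, beside 0.54, 0.60 and 0.37 for the 10. In OAS2, an antiviral RNA-activated enzyme, the levels were 5.99 RPKM with Wnt3a and 1.99 with RIPK1 against 22.5 in Vector. The other effectors had a lower median GC content, 45.4% against 57.1% for the 10. With the GC trend removed the Wnt3a medians were -0.73 for 33 of them and -0.28 for the 10. Of these, 11 and 1 were at least 2-fold lower, beside 0.815% of genes. With RIPK1, RIPK2, RIPK3 and RIPK4 the medians were then -1.30, 0.61, 0.77 and -0.07 for the 33. For the 10 they were -1.77, 0.37, 0.47 and 0.16. No test of the difference between the sets was made. Of 9 kept paralogs and partners of the 10, 0 were at least 2-fold apart from Vector in any of the 5 libraries. Among all genes that share was 0.295% to 1.59% by library and direction, so 0 of 9 is near it. LGALS1, which encodes galectin-1, had the largest difference of the 9. It stood at 566, 351, 636, 585 and 532 RPKM with Wnt3a, RIPK1, RIPK2, RIPK3 and RIPK4 and at 321 in Vector.

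**Figure D4:**
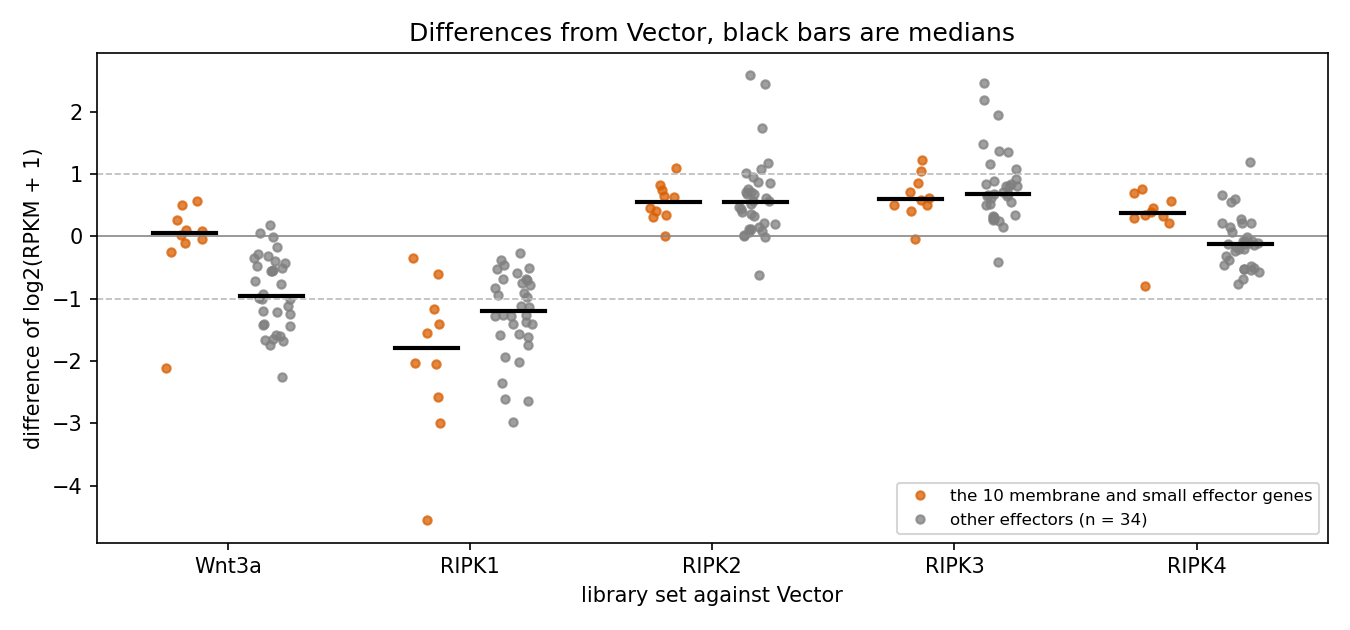
Differences of log2(RPKM + 1) from Vector for each library, with the 10 genes in orange, the 34 other effectors in grey, medians as black bars and dashed lines at 2-fold. With Wnt3a 9 of the 10 lie within 2-fold of Vector while the median of the other effectors is -0.96, and with RIPK1 both sets lie below 0.

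Across the 6 libraries the 10 profiles were alike, with 2 exceptions. Each was correlated with the mean of the other 9 on the log2(RPKM + 1) scale, as a description over 6 libraries. Pearson's r was 0.948 to 0.994 for 8 genes, 0.745 for XAF1 and 0.632 for IFITM2. Among 863 genes outside the group that ranged over at least 1 log2 unit, the 8 most like its mean profile were ISG15 (r of 0.996), OAS3 (0.989), UBE2L6, UBA7, ERAP2, SOCS3, TRIM21 and OGFR (0.966). ISG15, a ubiquitin-like modifier, stood at 882 RPKM with Wnt3a, 209 with RIPK1, 1547 with RIPK2, 1603 with RIPK3, 1345 with RIPK4 and 849 in Vector. UBA7 and UBE2L6 encode the enzymes that activate and carry ISG15. UBA7 had 2.43, 0.217, 6.12, 6.38 and 3.79 RPKM with Wnt3a, RIPK1, RIPK2, RIPK3 and RIPK4 and 2.47 in Vector. These correlations share the same 6 libraries and their depth. Centred on its own mean, the mean profile of the 10 stood at -1.84 with RIPK1 and at -0.01 to 0.73 in the other libraries. The values of r thus rest largely on RIPK1 and say less about likeness among the others.

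Promoters were searched for the ISRE to describe where it lies in the 10 genes. The genes were chosen as interferon-induced, so a high share with the element was to be expected. That share says nothing on their levels in any library. RefSeq promoter windows (GRCh38.p14, 250 bases before to 50 after the start) were found for 8 of the 10, and IFITM2 and LY6E had no entry. The ISRE core was searched on both strands as GAAA, any 2 bases and GAAA again. It occurred in the windows of 6 genes, which were IFI6, IFI27, IFITM1, IFITM3, LGALS3BP and BST2, which is 6 of 8, beside 4.38% of all 27305 genes with a window. It was in 3.57% of all 35116 windows. Of 38 other effectors with a window 25 held it. The GAS element, another interferon-responsive element, searched as TTCNNNGAA, was found in IFI27, IFI35, IFITM1 and BST2, 4 of 8, beside 9.38% of all genes and 7.66% of all windows. Its matches in IFI27 and IFITM1 and 1 of 2 in BST2 overlap an ISRE match. The stretches below run from 160 bases before the start to 10 after it, with ISRE matches in capitals. IFI6 and IFI27 are shown as the family pair that stood 8.03-fold and 26.5-fold lower in RIPK1, IFITM1 and IFITM3 as paralogs, BST2 for its overlapping matches and XAF1 as the gene that was also low with Wnt3a.
IFI6, chr1:27672183-27672352, minus strand: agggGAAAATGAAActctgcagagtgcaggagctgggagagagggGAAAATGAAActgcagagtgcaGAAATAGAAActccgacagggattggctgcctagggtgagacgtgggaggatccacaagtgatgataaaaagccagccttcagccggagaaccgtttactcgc
IFI27, chr14:94110576-94110745, plus strand: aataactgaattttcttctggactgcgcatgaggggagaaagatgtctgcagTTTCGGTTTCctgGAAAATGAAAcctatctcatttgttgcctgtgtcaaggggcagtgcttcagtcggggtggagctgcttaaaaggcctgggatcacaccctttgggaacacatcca
IFITM1, chr11:313880-314049, plus strand: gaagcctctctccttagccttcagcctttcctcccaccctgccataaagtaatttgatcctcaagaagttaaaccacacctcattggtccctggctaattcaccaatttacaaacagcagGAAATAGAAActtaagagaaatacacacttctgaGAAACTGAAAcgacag
IFITM3, chr11:320851-321020, minus strand: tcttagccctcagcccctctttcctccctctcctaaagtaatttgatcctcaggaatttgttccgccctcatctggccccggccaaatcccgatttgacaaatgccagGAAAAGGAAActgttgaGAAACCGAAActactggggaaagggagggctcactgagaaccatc
BST2, chr19:17405621-17405790, minus strand: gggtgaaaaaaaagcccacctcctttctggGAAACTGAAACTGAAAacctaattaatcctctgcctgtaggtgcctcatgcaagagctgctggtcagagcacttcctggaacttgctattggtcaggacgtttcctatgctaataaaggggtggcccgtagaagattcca
XAF1, chr17:6755886-6756055, plus strand: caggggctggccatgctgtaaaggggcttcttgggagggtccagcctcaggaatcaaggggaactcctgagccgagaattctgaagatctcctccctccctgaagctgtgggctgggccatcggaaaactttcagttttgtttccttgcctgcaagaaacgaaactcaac
IFI6 held 3 matches within these letters, starting 156, 115 and 93 bases before the start. IFI27, IFITM1, IFITM3 and BST2 held 2 each, those of BST2 overlapping each other. BST2, with a level 1.52-fold below Vector in RIPK1, and IFI27, with a level 26.5-fold below it, both held 2 matches. XAF1 and IFI35 held no ISRE match in their windows. Each holds GAAA repeated with 1 base between, which the search for 2 bases between did not count. Whether matches bear on the levels was not tested. A match is a string of letters and not a bound site.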

How the data were processed

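The deposited values are RPKM computed by the authors, 1 column per library with no pooling, per the file headers. GSNAP, DESeq and hg19 are listed, without versions or roles, per the submitters' processing notes. The gene annotation and the counting rule are not stated there. Column names equal the sample titles. The members and gene lists were chosen with earlier results of these data known. Named are the 10 genes, the kinases, up to 3 genes of each list with the largest difference from Vector, the 8 most alike genes, and IFNB1, STAT2, IRF9, NMI, XIAP and LGALS3. One gene that the rule names is not reported here. IFI27L1 and cell markers outside that rule were chosen after their values were seen.

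Library totals were recovered from whole-number ratios among low values and whole-base lengths, and gave 17.2 to 19.5 M reads. A length at which all 6 values were whole reads within 5 printed digits was found for 9 of the 10 genes, and for IFI6 the length in GENCODE 29 was used. Reads are therefore approximate. Intervals are exact (Clopper-Pearson, 95%, scipy 1.17.1) and reflect counting alone, as PCR copies cannot be told from separate molecules. A count of 0 allows up to 3 reads.

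Differences used log2(RPKM + 1), which understates those of genes with low values, over genes with mean RPKM of at least 1. The transfected kinase was left out of its own counts. Alternatives were a pseudocount of 0.1, other filters, median-ratio scaling, removal of a lowess trend on transcript GC content (11038 genes) and a 1.5-fold size. Scripts were tested on simulated data. No coordinates of the files' build were used.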

Additional observations from a re-analysis of the deposited data

How the results depend on the processing

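No paired analysis was possible because each group holds 1 library. With a pseudocount of 0.1, no filter, a mean RPKM of at least 5 or median-ratio scaling, the counts of the 10 genes at least 2-fold apart were the same in all 8 comparisons, and their medians stayed within the median counting interval. Median-ratio scaling turned the sign of 2 of 50 single differences from Vector, both near 0 (BST2 with Wnt3a and IFITM2 with RIPK2). Removal of the GC trend turned 5 of 50 and moved the medians to -0.28 for Wnt3a, 0.37 for RIPK2, 0.47 for RIPK3 and 0.16 for RIPK4 against Vector, and to -1.44 for RIPK1 and 0.37 for RIPK4 against Wnt3a. It left 0 of the 10 at least 2-fold higher with RIPK2 and 1 with RIPK3, beside 1.08% and 1.1% of genes, and 8 lower with RIPK1, beside 0.507%. At a size of 1.5-fold, 5 were higher with RIPK2, 6 with RIPK3, 2 with RIPK4 and 3 with RIPK4 against Wnt3a, beside 7.56%, 6.02%, 4.92% and 1.37% of genes, and 1 was lower with RIPK4, beside 3.08%. The cause of the GC trend was not tested. With 1 library per group, differences between cultures cannot be told from those of the treatments.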

Other observations

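The make-up of the group differed with RIPK1. IFITM3 stood 3.45-fold above IFITM2 with RIPK1, 8.55-fold with Wnt3a, 9.89-fold with RIPK2, 10.6-fold with RIPK3, 7.59-fold with RIPK4 and 7.23-fold in Vector. IFITM3 stood 2.38-fold above IFITM1 with RIPK1 and 2.04-fold with Wnt3a, and 1.45-fold to 1.59-fold in the other 4 libraries. The split of reads between these paralogs is uncertain.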
